A study of Mus musculus with 12 samples.

Results

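Spp1, the mouse gene for osteopontin, was 1 of the 11022 genes with a value in every culture of differentiated cytotoxic T lymphocytes (CTL). It was chosen by its values across the 4 groups of these same cultures, so its levels and differences are given here as a description with no test. The CTL came from P14 transgenic mice, whose CD8+ T cells all carry 1 T cell receptor (TCR) that recognises the gp33-41 peptide of a viral glycoprotein. The cells had been activated, expanded in IL-2 to day 7 of culture, and rested with IL-2 at 20 ng/mL. There were 4 groups of 3 biological replicates, grown from lymph nodes or spleens of 3 mice. The unstimulated group had no peptide, the TCR group had the peptide at 100 ng/mL for 4 h, the TCR+PI3Kdi group had peptide with the PI3K p110δ inhibitor IC87114 at 10 µM, and the TCR+MEKi group had peptide with the MEK inhibitor PD184252 at 2 µM. All 12 cultures shared the transgene and the IL-2, and each inhibitor was used at 1 dose and 1 time, without a culture that had inhibitor and no peptide. The values are FPKM, read counts scaled to exon length and library size, so that levels can be set side by side between genes.

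Osteopontin is a secreted, heavily phosphorylated glycoprotein that binds integrins through an arginine-glycine-aspartate motif and also binds CD44. It is known from mineralised bone matrix, from macrophages and from activated T cells, in which it was found as an early activation gene. The TCR signals through several kinases at once. PI3K p110δ makes the membrane lipid PIP3, while MEK phosphorylates the MAP kinases ERK1/2, which then act on transcription factors such as the ETS and AP-1 families.

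The gene lies on chromosome 5 of the mouse genome, at chr5:104435111-104441053 on the plus strand (RefSeq, build GRCm38.p6, Entrez identifier 20750). GENCODE lists 7 protein-coding transcripts with 1648 exonic bases between them, and the deposited row gathers 5 RefSeq mRNA accessions into 1 value, so transcript forms cannot be told apart. Of 1915 stretches of 100 bases along these transcripts, 112 (5.8%) were shared with 1 other annotated gene, Gm42793, which overlaps Spp1 on the same strand and had no row of its own. The 250 bases ahead of the RefSeq start, chr5:104434861-104435110 on the plus strand, are shown because the RUNX, ETS, AP-1 and T-box factors described further on bind letters of the kind searched for here. There are 2 promoters listed for Spp1, and only this one, at the first start, was searched. The capitals mark the letters ACCACA, a RUNX core, at -128 to -123 and GGAAGT, an ETS core, at -111 to -106 from the start.
Spp1 promoter: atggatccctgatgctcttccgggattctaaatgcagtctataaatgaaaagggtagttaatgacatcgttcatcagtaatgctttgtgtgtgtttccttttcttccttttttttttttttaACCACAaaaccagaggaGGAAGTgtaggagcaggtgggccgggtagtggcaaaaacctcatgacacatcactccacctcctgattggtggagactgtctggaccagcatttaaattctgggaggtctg
Motifs were searched on both strands. ACCACA was found in 14.2% of the 27025 mouse promoter windows of this length and GGAAGT in 20.0%, so neither is rare. The AP-1 letters TGANTCA (6.87% of windows), the CRE letters TGACGTCA (1.62%), the T-box letters GGTGTGA (3.31%) and the NFAT letters GGAAAA (20.6%) had no match in this window. The CCAAT box, the E-box CANNTG and the letters TATAAA had 1 match each, and were found in 34.5%, in 66.0% and in 3504 of the windows.

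Spp1 was already abundant in CTL before restimulation. The unstimulated cultures held 881.45, 1021.62 and 1279.39 FPKM in replicates 1, 2 and 3, with a mean of 1061 ± 202 (SD, n = 3), which was the 80th highest mean of all 11022 genes. With peptide for 4 h the values were 4764.91, 4963.74 and 5465.93 FPKM, a mean of 5065 ± 361 (SD, n = 3), the 10th highest. The lowest TCR culture lay far above the highest unstimulated culture. The ratio of the means was 4.77, and the log2 difference, on the log2(FPKM + 0.1) scale used throughout, was 2.27 ± 0.12 (SE). In each culture the mRNA made up 0.186 to 0.258% of the summed FPKM without peptide and 0.714 to 0.867% with it.

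With PI3K p110δ inhibited, Spp1 was at the level of the TCR group. The TCR+PI3Kdi cultures held 5099.49, 4994.37 and 5471.19 FPKM, a mean of 5188 ± 251 (SD, n = 3), and their range overlapped that of the TCR cultures. The log2 difference from the TCR group was 0.04 ± 0.12 (SE), less than its own standard error. Each TCR+PI3Kdi culture was above the TCR culture with the same replicate number, but by only 0.1, 0.01 and 0.0 on the log2 scale. A difference this small was not detectable with 3 cultures a group, which is not the same as none, and leaving out single cultures moved it between -0.01 and 0.09.

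With MEK inhibited, Spp1 was far lower. The TCR+MEKi cultures held 1249.88, 1581.21 and 1609.96 FPKM, a mean of 1480 ± 200 (SD, n = 3), which was the 56th highest mean. All 3 lay below every culture of the TCR and TCR+PI3Kdi groups. The log2 difference was -1.78 ± 0.12 (SE) from the TCR group and -1.82 ± 0.12 from the TCR+PI3Kdi group, so that the TCR mean was 3.42 times the TCR+MEKi mean. The level also came close to that of cells with no peptide. The lowest TCR+MEKi culture, 1249.88 FPKM, was below the highest unstimulated culture, 1279.39 FPKM, so these 2 groups overlapped, although the mean was 0.49 ± 0.12 (SE) higher on the log2 scale and each of the 3 same-numbered pairs was higher with MEKi. The sizes depend on the scale, as the summed FPKM of a culture was 470420 to 495945 unstimulated and 620715 to 666922 in the TCR group. With values rescaled to a common total (the TPM scale), the TCR difference was 1.86, the PI3Kdi difference 0.22 and the MEKi difference -1.52, while the median of all genes moved to -0.41, 0.19 and 0.26. Quantile normalisation, which forces the same distribution on every culture, gave 1.41, 0.34 and -1.09.

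**Figure D1:**
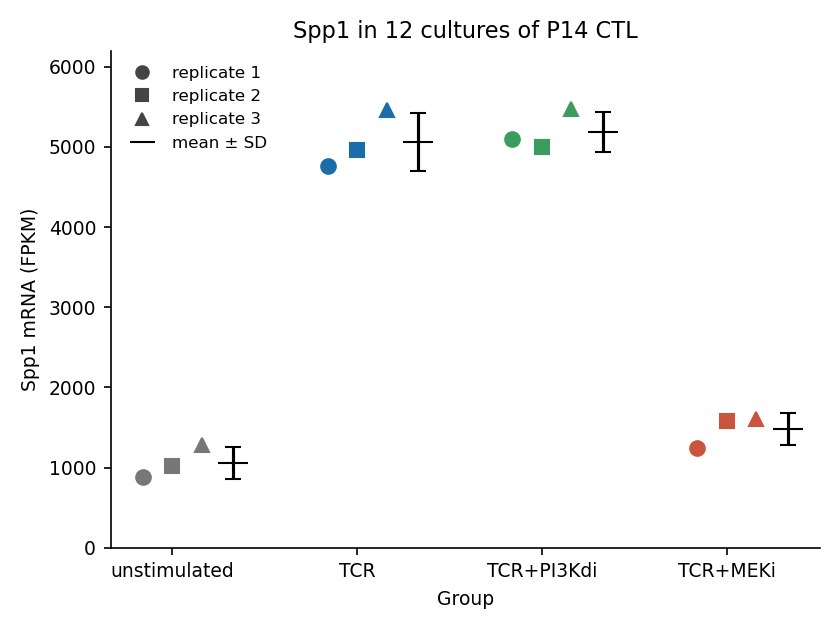
Spp1 mRNA in FPKM (linear axis from 0) for each of the 12 cultures by group, with symbols for replicates 1 to 3 and black bars for the mean ± SD of 3 cultures. TCR and TCR+PI3Kdi cultures lie between 4765 and 5471 FPKM, while unstimulated and TCR+MEKi cultures lie between 881 and 1610 FPKM.

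The order of the 4 group means was thus TCR+PI3Kdi, TCR, TCR+MEKi and unstimulated. The neighbours at the top of this order, and those at the bottom, had overlapping ranges, and only the middle step separated all cultures on either side. The spread within groups was 19.0% of the mean in unstimulated, 7.13% in TCR, 4.83% in TCR+PI3Kdi and 13.5% in TCR+MEKi cultures. Replicate 3 was the highest in each of the 4 groups.

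Expressed as the share of the TCR-induced gain in FPKM, 103% ± 6.26 (SD, n = 3) of the Spp1 increase was left with the PI3K p110δ inhibitor and 10.5% ± 5.00 with the MEK inhibitor. Each SD is over the 3 inhibitor cultures and leaves out the spread of the unstimulated and TCR cultures, whose means define the gain. Spp1 was set beside the other genes by the size of this gain, a ranking chosen after the values were seen. Its gain of 4004 FPKM was the 7th largest, behind Ifng, Ccl3, Ccl4, Xcl1, Ccl1 and Gzmb. These genes encode interferon gamma, the chemokines CCL3, CCL4, XCL1 and CCL1, and granzyme B. The other genes near it in this order differed from Spp1 in 1 or both of these shares. Ifng kept 68.0% ± 3.81 of its gain with PI3Kdi and 56.0% ± 4.83 with MEKi, a modest loss with either. Csf2, the gene for the cytokine GM-CSF, kept 15.7% ± 1.71 and 10.7% ± 3.03, and Tnf kept 14.9% ± 3.02 and 10.9% ± 4.62. For these cytokines the loss with MEKi was of the size seen for Spp1, but the loss with PI3Kdi was nearly as large. Gzmb kept 89.1% ± 9.20 and 84.1% ± 2.04, so that its gain was largely left with both.

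Among the 29 other genes of the 30 with the largest gain, 1 kept less than Spp1 with MEKi, which was Il2 at 7.17%, and 28 kept less than Spp1 with PI3Kdi. The medians over the 29 were 67.2% with PI3Kdi and 40.3% with MEKi. The gap between the inhibitors was 92.5 percentage points for Spp1. The widest gap among the 29 was 59.3 points, for Tpt1, whose value with PI3Kdi varied between cultures by an SD of 43.2 points. Outside these 29 the gap could be wider than that of Spp1. This held for Gcnt4 and Rgs2 among the 96 genes induced at least 8-fold that are described next. Among the 182 induced at least 4-fold it held for Gcnt4, Ipcef1, Rgs2 and Tigit.

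**Figure D2:**
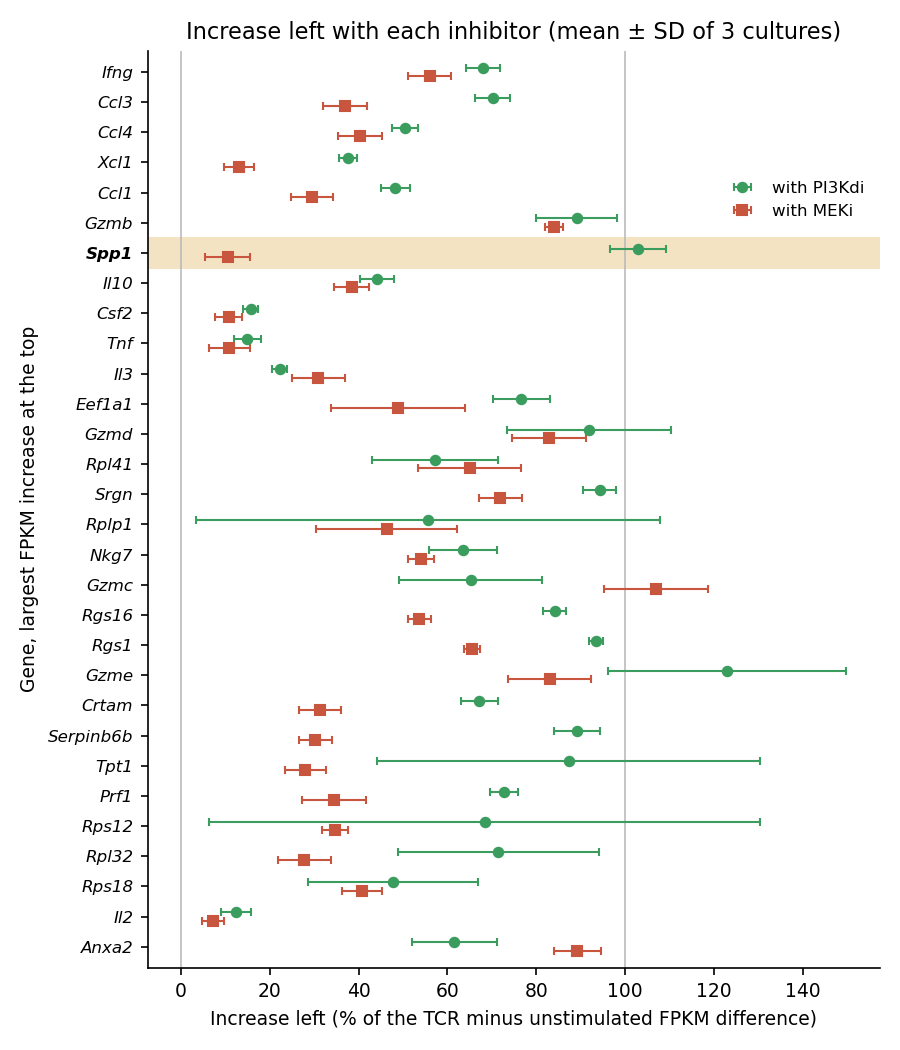
The 30 genes with the largest mean FPKM increase after TCR triggering, largest at the top, with the percent of that increase left with PI3Kdi (circles) and with MEKi (squares), mean ± SD of 3 cultures. The SD is over the inhibitor cultures, with the unstimulated and TCR means held fixed. Spp1 (shaded) has 103% left with PI3Kdi and 10.5% with MEKi, the widest gap in the plot.

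Spp1 was then placed among genes defined by fold. There were 96 genes that were called higher after TCR triggering, rose at least 8-fold and reached a mean of 10 FPKM. The ratio for Spp1, 4.77, is below 8, so it was compared with these 96 and was not one of them. All 96 had a lower unstimulated level, from 0 to 122 FPKM with a median of 1.94, against 1061 for Spp1. The 8-fold threshold favours genes with a low starting level, so this difference was largely set by the choice of genes. In the TCR group, 5 of the 96 had a higher level than Spp1 (Ifng, Ccl3, Ccl4, Xcl1 and Ccl1). The next below it were Il10 at 3545, Tnf at 3252 and Csf2 at 3205 FPKM, the genes of 3 secreted cytokines.

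With PI3Kdi, 90 of the 96 genes had a lower log2 difference from TCR than Spp1, and their median was -0.69, against 0.02 over all genes and 0.04 for Spp1. The 6 genes above it were Rgs2, Tnip3, Smox, Tnfaip3, Spry1 and Gcnt4, at 0.62 to 0.09. With MEKi, 25 of the 96 had a lower difference than Spp1, and the median was -1.37, against 0.01 over all genes. Spp1 was thus inside the range of the strongly induced genes with MEKi and near its upper end with PI3Kdi. Its neighbours in the MEKi order were Itga3 (-1.89), an integrin chain, Plk3 (-1.88) and Phlda1 (-1.87) on one side, and Ece1 (-1.78), Tagap (-1.77) and the chemokine gene Ccl1 (-1.77) on the other, all within 0.12, the standard error of Spp1. With quantile normalisation the share of such genes below Spp1 with MEKi went from 26.0% to 58.9%.

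Across all 11022 genes, 8.87% were called higher after TCR triggering (limma, adjusted p under 0.05 and over 2-fold), and 1.38% were called lower with PI3Kdi and 2.51% lower with MEKi, each against TCR. Of the 96 strongly induced genes, 31 were called lower with PI3Kdi and 64 with MEKi. The 96 were picked by their rise and level in the TCR cultures, and both inhibitor differences subtract those same cultures. These counts, and the medians given above, are thus in part built in and only describe the 96 beside all genes. Among the 64, 26 were also called lower with PI3Kdi and 38 were not. Few of the 64 shared with Spp1 a PI3Kdi difference of 0.04 or more. They were 3 genes, named here after their values were seen. Gcnt4, which encodes a glycosyltransferase, went from 1.71 ± 0.315 (SD) FPKM to 15.4 ± 1.65 with peptide, and held 16.4 ± 1.72 with PI3Kdi and 3.11 ± 0.822 with MEKi. Rgs2, a regulator of G protein signalling, held 19.2 ± 2.31 FPKM in the TCR group, 29.5 ± 3.76 with PI3Kdi and 8.63 ± 0.423 with MEKi. Spry1, which encodes the ERK pathway inhibitor Sprouty 1, held 48.7 ± 6.41, 52.1 ± 2.09 and 14.8 ± 1.68 FPKM in the same order. All 3 are expressed far below Spp1.

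**Figure D3:**
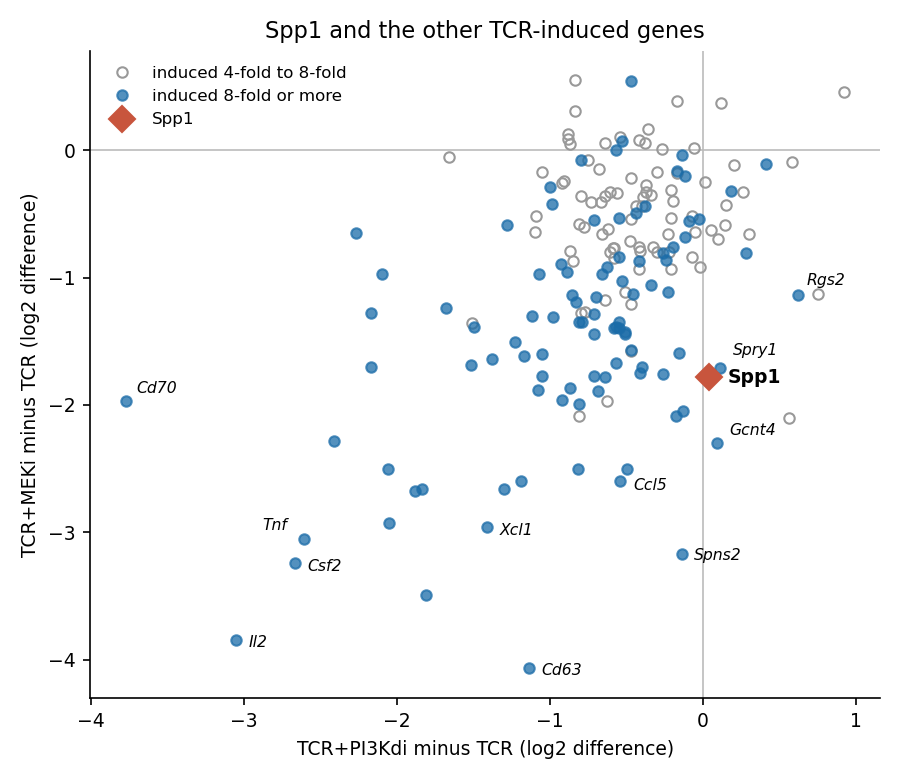
Log2 difference from TCR with PI3Kdi (x axis) and with MEKi (y axis) for Spp1 (diamond), 96 genes induced at least 8-fold (filled) and 86 induced 4-fold to 8-fold (open); both axes share the TCR cultures, so a tilt of the cloud is in part built in. Spp1 sits at 0.04 and -1.78, in the right part of the cloud near Spry1 and Gcnt4, with 18 of the 182 other genes further right.

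Directly between the inhibitors, the MEKi minus PI3Kdi difference of Spp1 was -1.82, and 7 of the 96 genes had a lower one. These were Spns2, Cd63, Gcnt4, Ccl5, A430084P05Rik, Ncs1 and Gfod1, at -3.04 to -1.91. With the set widened to the 182 other genes that rose at least 4-fold, which is close to the rise of Spp1 itself, 164 had a lower PI3Kdi difference than Spp1 and 29 a lower MEKi difference. The medians of these 182 were -0.57 and -0.82.

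The genes with the most similar pattern were found by centring the log2 values of each gene on its own mean over the 12 cultures and taking the root mean square (RMS) difference from Spp1, over 10231 genes with a mean of at least 1 FPKM in some group. The nearest was Dusp2, a nuclear phosphatase of MAP kinases, with an RMS difference of 0.24 against a median of 1.07 over all genes compared. Dusp2 held 63.89, 80.09 and 74.05 FPKM unstimulated, 311.14, 271.04 and 273.27 with peptide, 267.82, 233.23 and 247.4 with PI3Kdi, and 81.37, 96.57 and 87.35 with MEKi. Its groups divide into a high and a low pair as those of Spp1 do, and its TCR+MEKi cultures are all above its unstimulated cultures. Unlike those of Spp1, its TCR+PI3Kdi cultures were all below its TCR cultures, with a log2 difference of -0.19 ± 0.09 (SE). The other 7 were Ptgfrn (0.24), Pgap1 (0.25), Srxn1 (0.26), Hs3st3b1 (0.3), Card10 (0.31), Tnfsf8 (0.32) and A930015D03Rik (0.33). Ptgfrn encodes a membrane protein, Srxn1 an enzyme that restores oxidised peroxiredoxins, Card10 a scaffold of NF-κB signalling and Tnfsf8 the ligand of CD30. In each of the 8, the TCR+MEKi mean lay between the unstimulated mean and the TCR mean. Their PI3Kdi differences from TCR ran from -0.63 for Tnfsf8 to 0.3 for Hs3st3b1, so not all shared the value near 0.04 of Spp1. Their TCR means ran from 1.27 FPKM for Card10 to 285 for Dusp2, all below the 5065 of Spp1. By Pearson correlation over the same 12 cultures, the nearest were Mmd (0.989), Ptprn (0.988), Gcnt4 (0.985) and Dusp2 (0.985). The cultures include peptide-free and peptide groups, which tends to raise the correlation between genes induced by peptide. Dusp2 was the 1 gene among the first 8 by both measures.

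**Figure D4:**
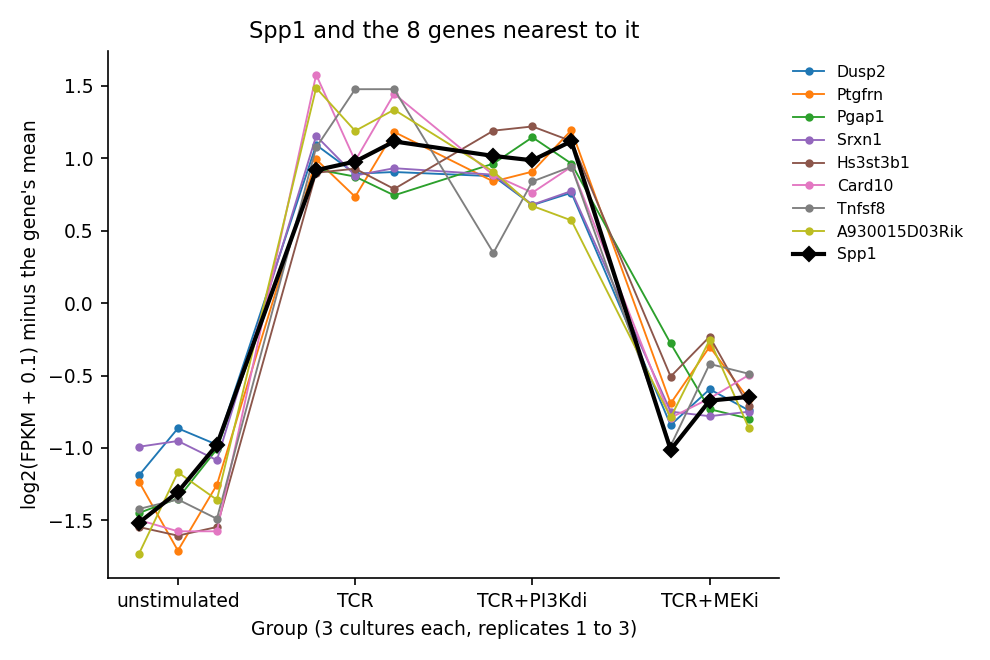
Log2(FPKM + 0.1) minus each gene's mean of the 12 cultures for Spp1 (black) and the 8 genes with the smallest RMS difference from it (0.24 to 0.33), by group with replicates 1 to 3 from left to right. All 9 lines are high in TCR and TCR+PI3Kdi cultures and low in unstimulated and TCR+MEKi cultures, and the lines only link points.

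Osteopontin acts through cell surface receptors, and 9 of 12 listed receptor genes had a row in the table. The gene with the clearest change was Cd44, which encodes the hyaluronan receptor that also binds osteopontin. It held 15.63, 16.17 and 15.64 FPKM unstimulated and 89.73, 100.0 and 98.45 with peptide, a rise of 2.59 ± 0.07 (SE) on the log2 scale (limma adjusted p = 2.24e-13). The rise was still present with either inhibitor, at 83.8 ± 8.22 FPKM (SD) with PI3Kdi and 73.0 ± 4.69 with MEKi, and neither passed the 2-fold threshold. Itgav, the alpha v integrin chain that pairs with beta chains to bind the arginine-glycine-aspartate motif, rose from 29.5 ± 1.67 to 64.8 ± 6.08 FPKM (limma adjusted p = 2.92e-09) and held 66.9 ± 4.23 and 56.6 ± 2.39 with the inhibitors. On the TPM scale its rise was 0.72 and short of 2-fold.

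Other integrin chains moved the opposite way. Itgb7, the beta 7 chain that pairs with alpha 4 in gut homing, fell from 128 ± 9.25 to 42.8 ± 2.87 FPKM with peptide, and Itga9, the alpha 9 chain, fell from 1.19 to 0.52. Of all genes, 11.1% were called lower after TCR triggering, beside these 2 of 9 and the 2 of 9 that rose. Itga4, the alpha 4 chain, was higher with MEKi than in TCR cultures by 1.35 ± 0.21 (SE) on the log2 scale (limma adjusted p = 1.54e-04), a call made by 0.980% of all genes in that direction. It was also higher with MEKi than with PI3Kdi by 1.05 ± 0.21, a call made by 1.39% of all genes, from 1.22 to 2.65 FPKM. Itgb5, the beta 5 chain, was called lower with PI3Kdi at levels under 1 FPKM, and its adjusted p went from 0.0418 to between 0.0518 and 0.178 without any 1 of the TCR cultures, TCR+PI3Kdi replicate 2 or 3, or unstimulated replicate 2. The Itga9 difference fell short of 2-fold without unstimulated replicate 2 (-0.97), as did that of Itga4 between the inhibitors without TCR+MEKi replicate 3 (0.98) or TCR+PI3Kdi replicate 1 (0.96). With a pseudocount of 1 the calls of Itga4, Itga9 and Itgb5 were lost, which leaves 3 of the 6 genes called. Itgb1, the beta 1 chain and the most abundant on the list in TCR cultures, was at 127 FPKM with peptide and 129 without, and neither it nor Itgb3 and Itga5, whose differences of -0.84 to 0.82 were short of 2-fold, was called in any comparison. The receptor genes thus gave no joint direction, with a median TCR difference of -0.3 against -0.01 over all genes.

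Of 14 listed genes for proteins that cut, crosslink or dephosphorylate osteopontin or inhibit those that do, 5 had a row. Timp1, an inhibitor of matrix metalloproteinases, rose from 0.163 ± 0.0603 to 19.3 ± 3.25 FPKM with peptide and fell to 4.58 ± 0.660 with PI3Kdi and 2.43 ± 0.254 with MEKi. It thus lost most of its gain with both inhibitors, where Spp1 lost its gain with MEKi. Furin, a proprotein convertase, rose from 47.1 ± 6.10 to 370 ± 26.3 FPKM and fell to 174 ± 13.6 with PI3Kdi, but was at 258 ± 10.6 with MEKi, a difference of -0.52 that did not pass the 2-fold threshold. Tgm2, a transglutaminase that crosslinks osteopontin, fell from 134 to 22.7 FPKM with peptide and stayed low with both inhibitors, at 19.0 and 15.9. Acp5, the phosphatase that removes phosphates from osteopontin, was higher with MEKi than with PI3Kdi by 1.03 ± 0.08 on the log2 scale, and by 1.0 and 0.95, short of 2-fold, without TCR+MEKi replicate 3 and TCR+PI3Kdi replicate 2. The PI3Kdi call of Furin was lost on the TPM scale (-0.91) and with quantile normalisation (-0.89). Enpp1, which makes pyrophosphate, was not called in any comparison. None of the 11 listed genes of the SIBLING family and bone matrix, to which osteopontin belongs by gene structure, had a row. This includes the 2 that lie just before Spp1 on chromosome 5, Ibsp and Mepe. The next genes after it, Pkd2 and BC005561 (now Thoc2l), were at 1.18 to 1.93 FPKM in all groups and passed no threshold, so the high level was not shared by the neighbours that were measured.

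**Figure D5:**
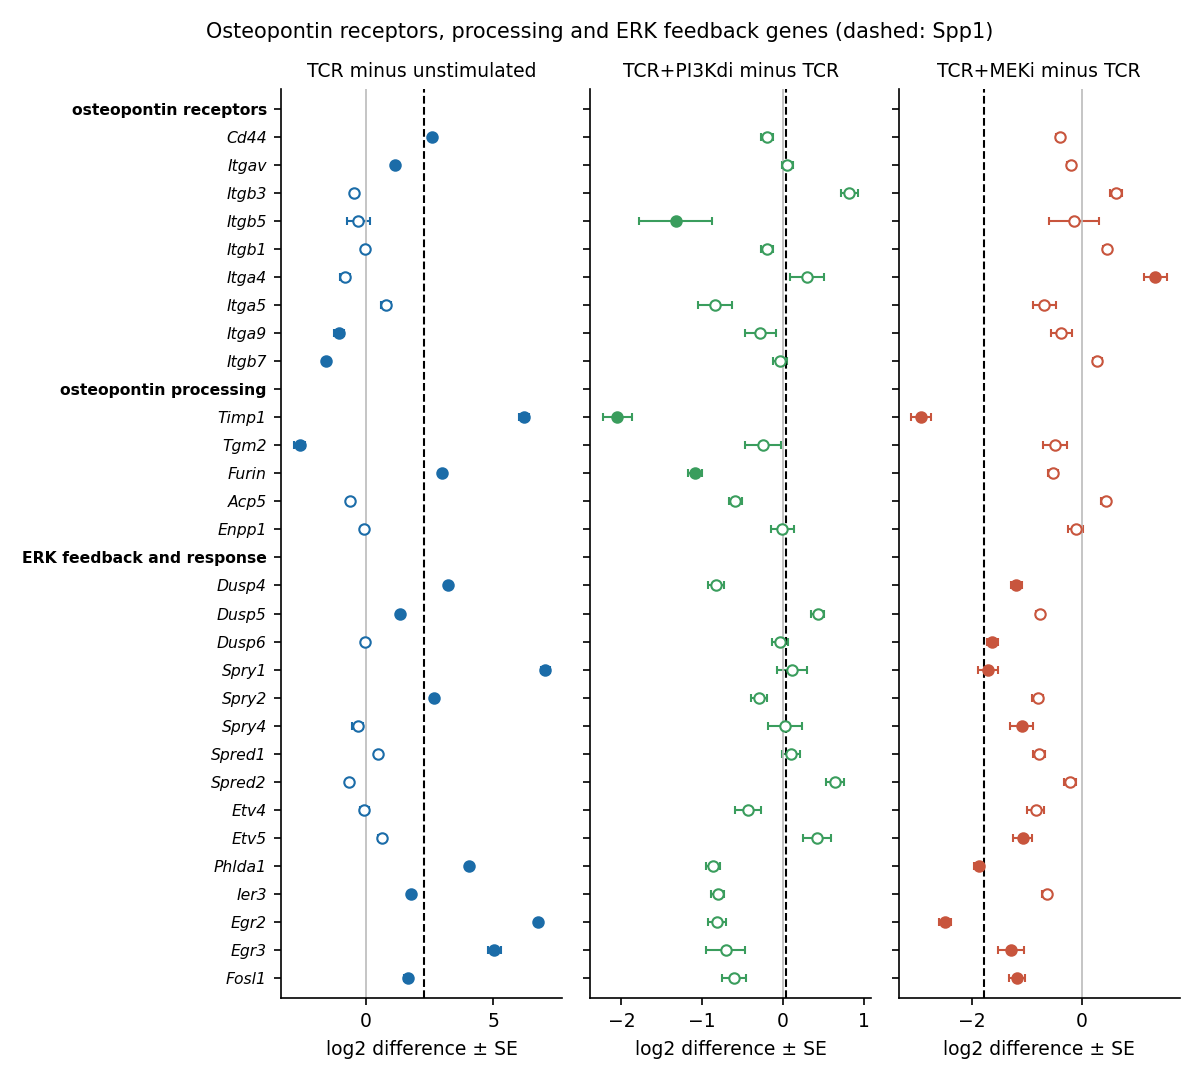
Log2 differences ± SE (fit over all 12 cultures) for the listed osteopontin receptor, osteopontin processing and ERK feedback genes in 3 comparisons, with filled circles for genes that passed adjusted p under 0.05 and 2-fold, and a dashed line at the value of Spp1 (2.27, 0.04 and -1.78). With PI3Kdi no ERK feedback gene is filled, and with MEKi 9 of 15 are filled and lie to the left of 0.

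The ERK feedback and ERK-responsive genes are a known readout of MEK activity. All 15 had a row. With MEKi 9 of the 15 fell, beside 2.51% of all genes, and none rose, and with PI3Kdi none was called in either direction, beside 0.499% of all genes called higher and 1.38% called lower. Without the 2-fold requirement, 9 of the 15 passed an adjusted p of 0.05 with PI3Kdi, and 11 had an unadjusted p under 0.05. Of the 9, Dusp5 (0.43) and Spred2 (0.64) were higher with PI3Kdi and the others were lower. The list medians were -1.09 with MEKi and -0.3 with PI3Kdi, against 0.01 and 0.02 over all genes. Dusp6, the cytoplasmic ERK phosphatase, was at 88.05, 87.0 and 88.69 FPKM unstimulated and 80.28, 90.01 and 87.57 with peptide, and at 22.72, 33.48 and 27.61 with MEKi (limma adjusted p = 2.23e-08). Unlike Spp1, it was not raised by peptide at 4 h, and MEKi took it below the unstimulated level. Spry1, Phlda1, Egr2, Egr3, Dusp4 and Fosl1 rose with peptide and fell with MEKi. Egr2, a zinc finger transcription factor, fell by 2.5 ± 0.11 (SE) on the log2 scale, the lowest value on the list. Spry4 and Etv5, a Sprouty and an ETS factor under ERK control, fell with MEKi and were not called higher with peptide. Etv5 did go from 1.85 to 2.93 FPKM with peptide, a log2 difference of 0.64 that was short of 2-fold. Dusp5, Spry2 and Ier3 rose with peptide and were short of 2-fold with MEKi (-0.76, -0.8 and -0.64), and Spred1, Spred2 and Etv4 were not called in any comparison. Between the inhibitors 7 of the 15 were lower with MEKi, beside 1.71% of all genes. On the TPM scale 5 of the 9 remained past 2-fold with MEKi, since the differences of Dusp4, Fosl1, Etv5 and Spry4 became -0.92, -0.92, -0.83 and -0.84. The Etv5 call was also lost without TCR replicate 2 (-0.99) or TCR+MEKi replicate 1 (-0.97), the Spry4 calls without TCR+MEKi replicate 3 (-0.87 and -0.89), and the call of Phlda1 between the inhibitors without TCR+MEKi replicate 1 (-0.94) or TCR+PI3Kdi replicate 3 (-0.96).

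Of the 25 transcription factors listed for a reported or possible action on Spp1, all had a row, and 10 rose and 1 fell with peptide, beside 8.87% and 11.1% of all genes. Runx2, the RUNX factor of osteoblasts, rose from 11.9 ± 0.691 to 31.5 ± 1.92 FPKM and stayed at 30.8 ± 1.98 with PI3Kdi and 28.6 ± 0.534 with MEKi. Rbpj, the DNA-binding partner of Notch, and Myc rose and held 109 and 290 FPKM with MEKi, as in the TCR group, and Junb rose to 227 and held 209. The levels of these 4 with MEKi thus did not follow that of Spp1. Tbx21, the gene for T-bet, a factor reported to act on Spp1 in T cells, rose from 13.6 ± 1.20 to 53.0 ± 6.73 FPKM. It was 1 of the 6 that fell with MEKi, beside 2.51% of all genes, to 24.2 ± 0.381 (limma adjusted p = 2.49e-06), and was at 28.8 ± 4.42 with PI3Kdi, a difference of -0.88 that was short of the 2-fold threshold. The AP-1 members Fos, Fosb and Fosl1 and the nuclear receptors Nr4a1 and Rxra were the other 5.

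Fosb was at 0.127 FPKM unstimulated, 2.42 with peptide, 2.39 with PI3Kdi and 0.577 with MEKi. It was the 1 factor called lower with MEKi than with PI3Kdi (-1.86 ± 0.21 SE), beside 1.71% of all genes. Its level was low throughout. The group means of Eomes, a T-box factor of effector CD8+ T cells, had the same order as those of Spp1 over a smaller range, at 113 ± 2.30 FPKM (SD) with PI3Kdi, 109 ± 3.09 with peptide, 75.4 ± 4.78 with MEKi and 73.2 ± 3.72 unstimulated. Its differences of 0.57 with peptide and -0.53 with MEKi had adjusted p under 0.05 in limma but were short of 2-fold. Rxra was the 1 factor that fell with PI3Kdi, from 1.71 to 0.53 FPKM, beside 1.38% of all genes. Vdr, its vitamin D partner, fell with peptide from 0.513 to 0.193. With a pseudocount of 1 every call of Rxra and Vdr was lost. Bhlhe40, Hif1a and Jund, with Eomes the most abundant of the rest, were not called in any comparison. Nor were Runx1, Runx3, Cbfb and Ets1, several of which had an adjusted p under 0.05 and differences short of 2-fold, and which are named here after their values were seen because their families bind the letters shown in capitals. Ets1 held 42.6 ± 1.84 FPKM with peptide, 65.4 ± 4.54 with PI3Kdi and 46.4 ± 1.39 with MEKi. On the TPM scale the rises of Runx2 (0.99), Junb (0.77) and Myc (0.8) and the fall of Tbx21 with MEKi (-0.86) were short of 2-fold, and the Vdr call was lost without TCR replicate 1 (-0.86) or unstimulated replicate 2 (-0.99). Transcript levels do not show the activity of these factors.

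Spp1 was last set beside 49 of 55 listed cytokine, growth factor and chemokine genes, chosen with earlier results known. Of these, 42 rose with peptide and 2 (Osm and Tgfb3) fell, beside 8.87% and 11.1% of all genes. Among the 42, 29 fell with PI3Kdi and 29 with MEKi, beside 1.38% and 2.51% of all genes, and 23 fell with both. The 42 were picked by their rise in the same TCR cultures, so these counts are in part built in. These 23 are Il2, Il3, Il6, Il10, Il13, Il17f, Il19, Il24, Il27, Il31, Il1a, Tnf, Lta, Csf2, Areg, Timp1, Cd40lg, Cd70, Tnfsf9, Xcl1, Ccl1, Ccl9 and Ccl22. A further 6 fell with PI3Kdi and were not called lower with MEKi (Il21, Il22, Il23a, Inhba, Tnfsf14 and Cxcl16). The 6 that fell with MEKi and were not called lower with PI3Kdi were Ccl3, Ccl4, Ccl5, Clcf1, Hbegf and Tnfsf8. All 6 had a negative PI3Kdi difference, from -0.98 for Ccl4 to -0.51 for Ccl3, where that of Spp1 was 0.04. Tnfsf8 was also among the 8 genes nearest to Spp1 in pattern. Ccl5, the chemokine RANTES, had the lowest MEKi difference of the 6. It held 568.03, 449.84 and 480.86 FPKM with peptide, 379.6, 310.85 and 335.66 with PI3Kdi, and 70.94, 90.93 and 85.08 with MEKi, so that its 3 groups did not overlap. The other 7 of the 42 were called with neither inhibitor (Ifng, Csf1, Tnfsf4, Tnfsf10, Tnfsf11, Vegfa) or rose with MEKi (Cxcl10). Ltb fell with MEKi without having risen, and Tgfb3 rose with MEKi. The most abundant listed genes that were not called in any comparison were Mif, Tgfb1, Fasl and Lif, each short of 2-fold. With quantile normalisation the MEKi differences of Ccl3 (-0.81), Ccl4 (-0.32), Il10 (-0.92) and Cxcl10 (0.93) and the PI3Kdi differences of Ccl1 (-0.42), Il10 (-0.81) and Tnfsf14 (-0.87) were short of 2-fold. On the TPM scale so were the MEKi differences of Hbegf (-0.93), Il24 (-0.97), Il6 (-0.97) and Ltb (-0.86), the PI3Kdi differences of Areg (-0.9), Ccl1 (-0.86), Il10 (-0.93) and Tnfsf14 (-0.88), and the rises of Csf1 (0.92) and Cxcl10 (0.93) with peptide, so that the sets named here depend on the scale. With a pseudocount of 1 every call of Ccl22, Cxcl16, Csf1, Cxcl10 and Tgfb3 was lost, as was the PI3Kdi call of Areg. The highest group means of Ccl22 and Cxcl16 were only 0.690 and 0.803 FPKM. Over the list, the PI3Kdi median was -1.23 and the MEKi median -1.31.

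The cultures carried the markers of CTL. All 11 T cell genes had a row, with Cd8a at 221 to 417 FPKM by group mean, Gzmb at 8740 to 13005 and Cd4 at 0.450 to 2.94. Osteopontin is also a macrophage product, and 1 of 14 macrophage and monocyte markers had a row. This was Cd68, at 4.88 to 8.40 FPKM over the 12 cultures, with no call in any comparison and a TCR difference of -0.28 ± 0.16 (SE). The other 13, among them Adgre1, Csf1r and Lyz2, were not in the table, which holds only genes that passed a filter on low counts. None of 7 B cell markers, 3 of 8 dendritic cell markers, 2 of 5 NK cell markers and 2 of 7 stromal markers had a row. The summed FPKM of the dendritic cell markers was 8.04 to 14.7 over all cultures, and that of the stromal markers was at most 16.4. Some of these markers moved with peptide. Zbtb46, a dendritic cell factor, rose from 0.0267 ± 0.00577 to 3.49 ± 0.193 FPKM (limma adjusted p = 4.72e-13) and held 1.97 ± 0.164 with PI3Kdi and 3.11 ± 0.365 with MEKi. Col1a1, a collagen chain, rose from 0.0167 to 0.357 FPKM and fell to 0.0967 with PI3Kdi and 0.0633 with MEKi. Of the 2 NK cell markers, the receptor gene Klrb1c fell from 5.39 to 1.79 FPKM with peptide. The other, Eomes, also a factor of effector CD8+ T cells, went from 73.2 to 109 FPKM, short of 2-fold. The summed FPKM of these 2 was 73.2 to 117 over all cultures, most of it from Eomes. The part of other cell types in the Spp1 values was not tested. In whole cultures, more cells with the mRNA and more mRNA per cell cannot be told apart.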

How the data were processed

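RNA from 12 CTL cultures was sequenced in 1 lane from stranded mRNA libraries. The authors aligned the reads to mm10 with STAR (2.4.2a), counted them per RefSeq gene with Subread (1.5.0), filtered low counts and made the deposited FPKM values with edgeR, using TMM library sizes and exon lengths. The strand setting of the counting is not given in the sources used here. Labels gave each culture its group and biological replicate, and no value column was left unassigned (0).

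Spp1 and the gene lists were chosen with earlier results of these data known. All genes were fitted with limma (3.58.1, R 4.3.3) on log2(FPKM + 0.1) over the 4 groups, with trended variance and Benjamini-Hochberg adjustment over 11022 genes. A gene was called at adjusted p under 0.05 and over 2-fold. The fit was tested on simulated data. The text names Spp1, called list genes, up to 4 others a list by mean FPKM, the 8 genes nearest Spp1, 3 neighbours on each side of Spp1 in the MEKi and TCR-level orders, and neighbouring genes on the chromosome. Promoter windows came from RefSeq (GRCm38.p6), 1 per gene. Figures were drawn with matplotlib (3.10.9).

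Counts are not in the table. Steps in low values gave best depths of 7720000 to 13260000 reads a library, but only 47.6 to 65.9% of the values tested fell within 0.15 of a whole read, so these depths are rough and no count test was run. At those depths Spp1 holds 15900 to 106000 reads a library, which leaves counting error small beside the spread between cultures.

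Same-numbered cultures deviated together from their group means (9407 genes) in TCR with TCR+PI3Kdi (correlations 0.48, 0.39 and 0.26), TCR with TCR+MEKi (0.15, 0.11 and 0.19), TCR+PI3Kdi with TCR+MEKi (0.12, 0.14 and 0.16), and TCR+MEKi with unstimulated (0.16, 0.16 and 0.18), but not in every pair of unstimulated with TCR (0.11, 0.14 and 0.01) or TCR+PI3Kdi (0.01, 0.13 and -0.09). The labels do not say whether a number is 1 mouse in every group, and the low correlations in those last comparisons cannot decide it. The main fit did not pair the cultures, and a fit with replicate as a block over all groups was an alternative. Other alternatives were a pseudocount of 1 or 0.01, the TPM scale, quantile normalisation, a filter at 1 FPKM, other thresholds and leaving out each culture.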

Additional observations from a re-analysis of the deposited data

Results flagged for a closer look

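Spp1 was lower than in the same-numbered TCR culture in 3 of 3 cultures with MEKi, with log2 differences of -1.93, -1.65 and -1.76. With PI3Kdi it was above it in 3 of 3, but by 0.1, 0.01 and 0.0, within the spread between cultures, so no shift with PI3Kdi is shown. The MEKi minus PI3Kdi difference was -1.82, and the difference was not tested because Spp1 was chosen by its values across these 4 groups.

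The other results are listed genes whose difference between the inhibitors itself passed the limma test (adjusted p under 0.05 and over 2-fold). Genes lower with MEKi than with PI3Kdi were Fosb (-1.86), Dusp5 (-1.19), Dusp6 (-1.59), Spry1 (-1.81), Spry4 (-1.11), Etv5 (-1.49), Phlda1 (-1.0), Egr2 (-1.67), Il1a (-1.48), Areg (-2.36), Tnfsf8 (-1.34), Xcl1 (-1.55), Ccl5 (-2.06), Ccl22 (-1.16) and Cd4 (-2.48), as MEKi minus PI3Kdi on the log2 scale. Genes higher with MEKi were Itga4 (1.05), Acp5 (1.03), Il6 (1.53), Il21 (1.11), Il22 (3.85), Il23a (1.62), Tgfb3 (1.3), Cd70 (1.79), Cxcl16 (2.07) and Pecam1 (1.19). Cd4, a marker of helper T cells, was at 2.69 FPKM with peptide, 2.94 with PI3Kdi and 0.450 with MEKi.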

How the results depend on the processing

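The Spp1 differences kept their sign under each alternative except that of PI3Kdi minus TCR when single cultures were left out. On the TPM scale they were 1.86 for TCR minus unstimulated, 0.22 for PI3Kdi minus TCR and -1.52 for MEKi minus TCR, and with quantile normalisation they were 1.41, 0.34, -1.09 and, for MEKi minus PI3Kdi, -1.42. Leaving out 1 culture gave 2.14 to 2.41, -0.01 to 0.09, -1.85 to -1.66 and -1.88 to -1.7. With the replicate block the values were the same (2.27, 0.04, -1.78 and -1.82), with a standard error of 0.09, and no call of a listed gene was lost. The increase left was 122% with PI3Kdi on the TPM scale, 99.4 to 109% without single cultures, and 8.43 to 13.4% with MEKi. The share of strongly induced genes below Spp1 with MEKi was 15.9% at a 4-fold threshold, 58.9% with quantile normalisation and 24.8 to 34.7% without single cultures, and with PI3Kdi it was 97.9% and 92.7 to 95.9%. Among receptors 3 genes were called with a pseudocount of 1, and 4 to 7 without single cultures. Among the transcription factors 23 passed with no fold-change threshold, and 10 to 12 without single cultures. Counts were 3 for processing, 11 to 12 for ERK genes and 45 to 46 for cytokines without single cultures. By Pearson correlation 1 of the 8 nearest genes was shared.

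Of 171 calls of listed genes, 29 were lost with a pseudocount of 1, 22 on the TPM scale, 10 with quantile normalisation and 17 without some single culture. Beyond those in the report these last were Ccl1 with PI3Kdi without TCR replicate 1 (-0.97) or TCR+PI3Kdi replicate 1 (-0.99), Cxcl10 with MEKi without TCR replicate 2 (0.83) or TCR+MEKi replicate 1 (0.95), Il6 without TCR replicate 3 (-0.99) or TCR+MEKi replicate 2 (-1.0), Il19 without TCR+MEKi replicate 1 (-1.36), and Tgfb3 with peptide without unstimulated replicate 1 (-0.98). Between the inhibitors they were Ccl22 without TCR+PI3Kdi replicate 3 (-0.82), Il21 without TCR+PI3Kdi replicate 2 (0.98), and Tgfb3 without TCR+MEKi replicate 1 or 3 or TCR+PI3Kdi replicate 2 or 3 (0.96 to 1.25). The cause was not tested. With 3 cultures a group, whole-culture RNA and no depth in the table, small differences of Spp1 are out of reach.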

Other observations

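Sp7, the gene for osterix, a transcription factor of bone-forming cells, was among the 5 strongly induced genes that kept less of their gain with MEKi than Spp1 did, and is named after its values were seen. It was listed at 0 in the unstimulated cultures and held 9.38, 11.16 and 12.5 FPKM with peptide, and 3.12 ± 0.824 (SD, n = 3) with PI3Kdi and 0.907 ± 0.261 with MEKi. It thus fell with both inhibitors, by 1.81 and 3.49 on the log2 scale. The other 4 were Cd63, a tetraspanin of lytic granules, Spns2, a sphingosine phosphate exporter, Gcnt4 and Il2.

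Among genes that rose 4-fold to 8-fold, as Spp1 did, Tigit and Ipcef1 also fell with MEKi and had a PI3Kdi difference above that of Spp1. Tigit, an inhibitory receptor of T cells, held 19.6 ± 0.542 FPKM (SD, n = 3) unstimulated, 121 ± 11.7 with peptide, 202 ± 9.58 with PI3Kdi and 55.2 ± 3.55 with MEKi. Ipcef1 held 3.39, 20.3, 29.7 and 4.67 FPKM in the same order.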
